A study of Homo sapiens with 3 samples.

Results

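The regions described here are accessible places in the genome that sit at the ends of 2 or more protein-coding genes at once. A region was taken as a member when at least 1 of its summits, the points of highest signal within it, lay within 1 kb of an annotated outer end of each of 2 or more different protein-coding genes. Of 65234 distinct regions in the list, 2075 met this rule (3.18%). Another 11111 regions lay at an end of exactly 1 protein-coding gene, called single regions below, and 52048 lay at no such end. Members therefore made up 15.7% of the 13186 regions at any coding gene end, and they touched 3998 of 20037 protein-coding genes.

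The cells were neurons made by expressing NGN2 in KOLF2.1J, a widely used line of human induced pluripotent stem cells. NGN2 is a transcription factor that turns stem cells into excitatory-type neurons. They were collected at day 14 of differentiation and assayed by ATAC-seq, in which the Tn5 transposase inserts adapters into open DNA. The 3 biological replicates were the only group and came from 1 cell line, with no other genotype or treatment. The authors combined them into 1 list of regions by IDR, which retains peaks that rank reproducibly across samples, so no value per replicate was analysed here and every comparison is between places in the genome.

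Many mammalian genes lie back to back, with the starts of both genes close together and transcription running away from the gap in either direction. Such a stretch is called a bidirectional or divergent promoter, and it lets a single patch of open chromatin serve both genes. Divergent promoters are known to be common among housekeeping genes for DNA repair, mitochondria and protein synthesis, to be rich in CpG dinucleotides and to lack a TATA box more often than other promoters. Genes can also follow one another on the same strand (tandem, with the end of one gene near the start of the next) or meet at their far ends (tail-to-tail). The far end, where transcription stops, is usually not a place of open chromatin.

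The stretch between both starts was read for 9 head-to-head members from RefSeq promoter sequences (GRCh38.p14), with 15 further bases on each side. These examples were chosen after their values had been seen. They are GTF3C1/KATNIP, TDP2/ACOT13, ATP6V1E1/BCL2L13, RARS2/ORC3 and RPGRIP1L/FTO from the top of the ranking by fold enrichment, HARS1/HARS2 as a pair that encodes both histidyl-tRNA synthetases, DCAKD/NMT1 as the most accessible member near MAPT, COL4A1/COL4A2 as a classical pair of low accessibility, and H2BC8/H2AC8 as a pair of histone genes. All are printed 5′ to 3′ on the plus strand, so the first gene of each name reads leftwards from near the left edge and the second reads rightwards from near the right edge. Capitals mark matches, on either strand, to the words searched: CCGGAAG (the ETS family), GCGCATGCG (NRF1), GGGCGG (SP and KLF factors), CCAAT (NFY), TATAAA (the TATA box), TGACGTCA (CREB) and CAGATG (an E-box of the NEUROG and NEUROD type).
GTF3C1/KATNIP: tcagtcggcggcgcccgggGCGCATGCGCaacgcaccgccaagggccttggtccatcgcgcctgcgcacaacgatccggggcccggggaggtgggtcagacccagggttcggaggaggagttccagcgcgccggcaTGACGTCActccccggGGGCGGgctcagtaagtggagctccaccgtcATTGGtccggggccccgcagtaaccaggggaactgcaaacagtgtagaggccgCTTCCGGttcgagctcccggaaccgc
TDP2/ACOT13: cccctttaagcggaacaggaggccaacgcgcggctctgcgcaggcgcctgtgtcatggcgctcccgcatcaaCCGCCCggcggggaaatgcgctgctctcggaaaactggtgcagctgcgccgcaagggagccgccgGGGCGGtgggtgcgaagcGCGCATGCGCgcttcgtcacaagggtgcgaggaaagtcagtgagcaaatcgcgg
ATP6V1E1/BCL2L13: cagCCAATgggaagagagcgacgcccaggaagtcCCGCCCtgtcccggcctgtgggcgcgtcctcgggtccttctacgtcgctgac
RARS2/ORC3: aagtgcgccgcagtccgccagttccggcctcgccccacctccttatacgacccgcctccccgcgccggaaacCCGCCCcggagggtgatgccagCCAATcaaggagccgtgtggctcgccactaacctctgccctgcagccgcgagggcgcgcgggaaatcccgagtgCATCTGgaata
RPGRIP1L/FTO: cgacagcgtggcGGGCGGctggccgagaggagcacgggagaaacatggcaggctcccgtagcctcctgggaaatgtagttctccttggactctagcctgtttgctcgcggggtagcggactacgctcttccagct
HARS1/HARS2: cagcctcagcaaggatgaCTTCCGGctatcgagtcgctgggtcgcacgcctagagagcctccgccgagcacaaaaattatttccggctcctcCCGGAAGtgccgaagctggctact
DCAKD/NMT1: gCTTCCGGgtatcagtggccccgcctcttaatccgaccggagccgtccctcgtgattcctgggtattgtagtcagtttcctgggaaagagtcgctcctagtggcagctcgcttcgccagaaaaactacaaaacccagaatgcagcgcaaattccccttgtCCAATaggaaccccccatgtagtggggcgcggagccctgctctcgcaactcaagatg
COL4A1/COL4A2: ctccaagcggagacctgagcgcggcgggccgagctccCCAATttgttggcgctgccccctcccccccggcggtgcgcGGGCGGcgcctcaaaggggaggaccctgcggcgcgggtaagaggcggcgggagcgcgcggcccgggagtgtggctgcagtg
H2BC8/H2AC8: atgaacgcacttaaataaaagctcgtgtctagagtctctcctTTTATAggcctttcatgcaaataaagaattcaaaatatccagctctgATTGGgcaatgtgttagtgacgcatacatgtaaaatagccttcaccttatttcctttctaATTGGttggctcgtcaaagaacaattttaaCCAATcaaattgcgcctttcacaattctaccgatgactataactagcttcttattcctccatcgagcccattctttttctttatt

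These stretches lie at chr16:27549898-27550159 (GTF3C1/KATNIP), chr6:24666884-24667092 (TDP2/ACOT13), chr22:17628807-17628892 (ATP6V1E1/BCL2L13), chr6:87589972-87590150 (RARS2/ORC3), chr16:53703844-53703978 (RPGRIP1L/FTO), chr5:140691355-140691470 (HARS1/HARS2), chr17:45061116-45061332 (DCAKD/NMT1), chr13:110307142-110307299 (COL4A1/COL4A2) and chr6:26216673-26216936 (H2BC8/H2AC8). The distance between both starts was 231 bp at GTF3C1/KATNIP, 178 bp at TDP2/ACOT13, 55 bp at ATP6V1E1/BCL2L13, 148 bp at RARS2/ORC3, 104 bp at RPGRIP1L/FTO, 85 bp at HARS1/HARS2, 186 bp at DCAKD/NMT1, 127 bp at COL4A1/COL4A2 and 233 bp at H2BC8/H2AC8. The strongest summit fell between the starts in all 9. At HARS1/HARS2 the ETS word occurred near either start, and at GTF3C1/KATNIP and TDP2/ACOT13 the NRF1 word occurred as 2 overlapping matches, 1 on each strand. At GTF3C1/KATNIP the CREB word began 121 bp and the SP and KLF word 137 bp from the GTF3C1 start, beside the summit at 147 bp. H2BC8/H2AC8 was the only one of the 9 with TATAAA, and it also held CCAAT 3 times. Its GC content was 36.4%, against 56.7 to 76.6% in the other 8. A match shows only that these letters are present.

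Labels were checked against marker genes. Of 14 pan-neuronal genes, 12 had a region at an outer end, among them MAP2, SYN1, DCX and the neurofilament genes NEFL and NEFM, whereas RBFOX3 and ELAVL4 had none. Of 6 pluripotency genes, 2 did (SOX2 and LIN28A), with none at POU5F1 or NANOG. Of 6 glial genes, 2 did (AQP4 and MBP). Over all protein-coding genes, 68.8% had a region at either outer end.

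Most members held a pair of genes. In 1983 members there were 2 genes, in 88 there were 3, in 3 there were 4, and 1 region held 23. That last region, chr5:141513046-141514613, lies where the 22 protocadherin gamma genes, which encode cell adhesion proteins of neurons, end on shared last exons and DIAPH1, an actin regulator, ends on the opposite strand. Its fold enrichment was 7.02, with 1021 tags. Fold enrichment is the authors' ratio of tags at the summit to the background around it, and the tag count is the number of sequenced tags piled up at the summit over the pooled samples. A single summit was near both ends in 2065 of the 2075 members, so the choice of summit decided few memberships. In 82 members at least 1 of the genes was a readthrough gene, taken by its symbol as an annotated join of 2 protein-coding genes. A join with a part outside the protein-coding symbols, such as RBAK-RBAKDN, was not counted.

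Strand was known for both genes in 1485 of the 2-gene members, and 1026 of these (69.1%, Wilson 95% interval 66.7 to 71.4%) were head-to-head. A further 311 (20.9%, 18.9 to 23.1%) were tandem, 79 (5.32%) held 2 starts on the same strand, and 40 (2.69%, 1.98 to 3.65%) were tail-to-tail. The remaining members with known strands were 22 with a start beside a far end on the opposite strand and 7 with 2 far ends on the same strand. This differed from the genome's own arrangement of neighbours. Among all 3585 pairs of coding genes whose near ends lie within 2 kb of each other, 33.5% were head-to-head, 25.7% tail-to-tail and 23.5% tandem.

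A shared region was found at 1100 of the 1200 head-to-head pairs among those neighbours (91.7%, 90.0 to 93.1%). The count was 120 of 146 for 2 starts on the same strand (82.2%, 75.2 to 87.5%), 205 of 384 for 2 far ends on the same strand (53.4%, 48.4 to 58.3%), 350 of 841 for tandem pairs (41.6%, 38.3 to 45.0%), 37 of 93 for a start beside an opposite far end (39.8%, 30.4 to 49.9%) and 55 of 921 for tail-to-tail pairs (5.97%, 4.62 to 7.69%). Over all 3585 pairs the share was 52.1%. The head-to-head interval lay above those of the other arrangements, and the tail-to-tail interval below those of arrangements with a start. Pairs of starts stood above the share for all pairs, and tail-to-tail pairs below it. The share for 2 far ends on the same strand does not describe separate places. Protocadherin gamma genes end together at 1 region, and each pairing of those on the plus strand was counted, with that region each time. Only 7 of the 2-gene members had this arrangement. These pairings also enter the share over all pairs, and the shares were not recomputed without them. Distances between the ends within 2 kb were not matched between arrangements.

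Members were more accessible than single regions. The fold enrichment of the 2075 members had a median of 11.3 (lowest 1.71, highest 23.2), and that of the 11111 single regions a median of 9.21. Median tag counts were 1131 (100 to 3445) and 769 (66 to 3783). Regions at no coding end had medians of 5.15 and 203 tags. The classes overlapped widely, and the highest fold enrichment of the whole list, 31.9, belonged to a region at no coding end.

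**Figure D1:**
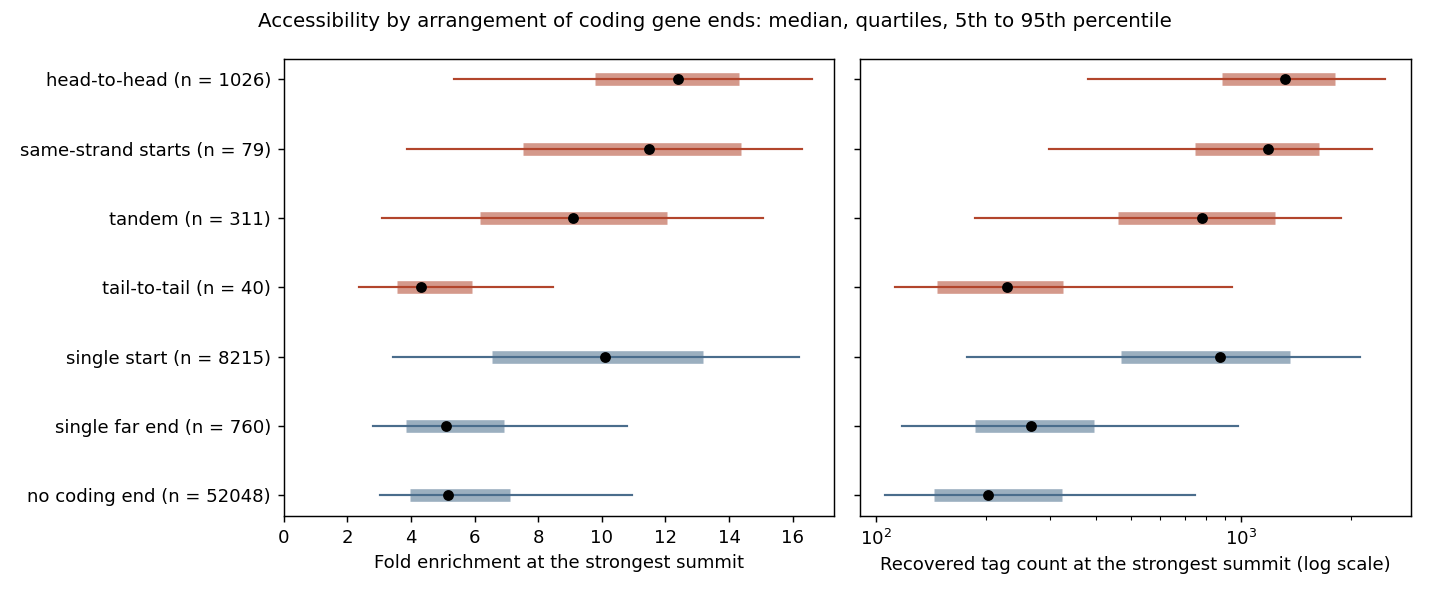
Fold enrichment (left, linear axis) and recovered tag count (right, log axis) at the strongest summit for 7 classes of region. The dot is the median, the thick bar the quartiles and the thin line the 5th to 95th percentile over regions; head-to-head regions have the highest medians (12.4 and 1313 tags) and tail-to-tail regions the lowest median fold enrichment (4.33).

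Differences were tested over autosomes, because single regions are not replicates. For each autosome the median of one class was subtracted from that of the other, and a two-sided sign-flip permutation test was run over autosomes with 100000 resamples. P-values were adjusted by Benjamini-Hochberg over the 8 tests made. Values after ± are SDs over autosomes, and they measure how uniform a difference was along the genome, not how it would vary between cultures.

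On the log2 scale the fold enrichment of members exceeded that of single regions by 0.30 ± 0.11 and was higher in 22 of 22 autosomes (permutation p = 1e-05, the smallest that these resamples can give; adjusted p = 1.33e-05). The smallest difference was 0.04 on chromosome 19 and the largest 0.52 on chromosome 4. The log2 tag count differed by 0.59 ± 0.18, again in 22 of 22 autosomes (permutation p = 1e-05, adjusted p = 1.33e-05). The local background that divides the tags was itself higher at members, by 0.30 ± 0.12 on the log2 scale in 22 of 22 autosomes (permutation p = 1e-05, adjusted p = 1.33e-05). The fold enrichment therefore gave a smaller difference than the tags. The difference in log2 fold enrichment was 0.17 when single far ends were left out and 0.19 within classes of width, with a permutation p of 1e-05 each time.

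Arrangement divided the members. Head-to-head members had a median fold enrichment of 12.4 and 1313 tags, and members with 2 starts on the same strand had 11.5 and 1179 tags. Tandem members had 9.10 and 778 tags, close to the single regions. Tail-to-tail members had 4.33 and 229 tags, close to the 760 single far ends at 5.12 and 265 tags. Head-to-head members exceeded the other 2-gene members with known strands by 0.44 ± 0.29 on the log2 scale, with a higher median in 18 of 21 autosomes and a lower one on chromosomes 18, 20 and 21 (permutation p = 1e-05, adjusted p = 1.33e-05).

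When the 8215 single regions at a start (median fold enrichment 10.1, 872 tags) were taken as the comparison, head-to-head members were still higher, by 0.29 ± 0.10 in 21 of 21 autosomes (permutation p = 1e-05, adjusted p = 1.33e-05). Without the head-to-head members, in contrast, no difference between the other 2-gene members with known strands and single regions was detected (mean -0.02 on the log2 scale over 21 autosomes, permutation p = 0.818 before and after adjustment, in a comparison added after the data had been seen). It left out the 498 2-gene members with a strand not given (median fold enrichment 10.0) and the 92 members with 3 or more genes (11.3). Chromosome 8 is in neither comparison, since strands for its genes were not used here.

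**Figure D2:**
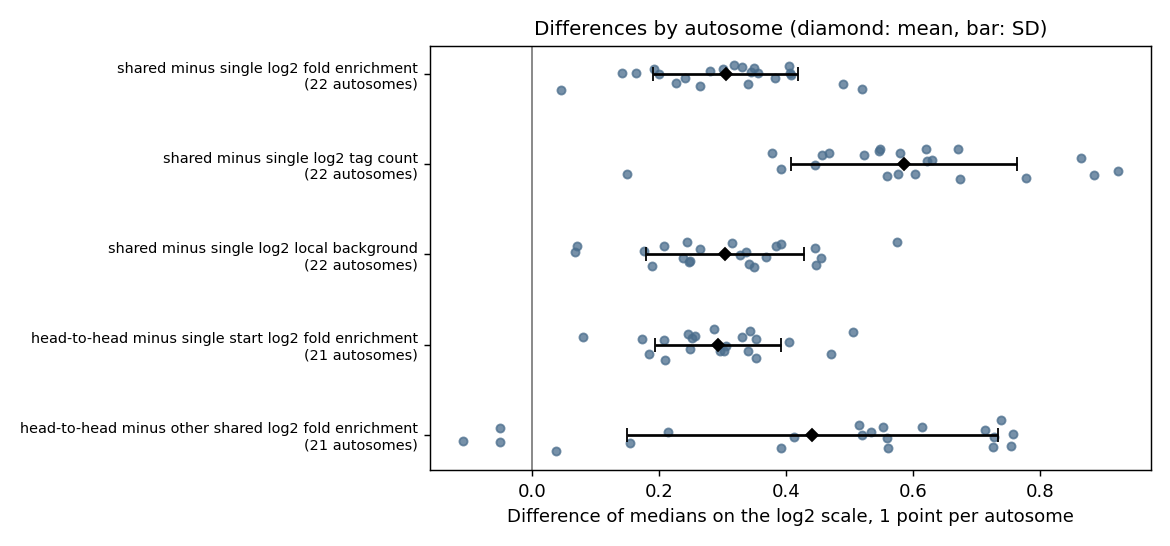
Differences between classes of region on the log2 scale, 1 point per autosome, with the mean as a diamond and the SD as a bar. All points of the upper 4 comparisons lie above 0, and 3 of 21 points of the lowest comparison lie below it.

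Members were slightly wider than single regions, with medians of 1322 and 1278 bp. The difference was 45.1 ± 43.0 bp and positive in 17 of 22 autosomes (permutation p = 6e-05, adjusted p = 6.86e-05), but width is not independent of the rule, which looks at every summit of a region. Within 5 classes of width the median fold enrichment of members was above that of single regions each time. In the narrowest class the medians were 5.94 and 5.14, in the third 12.9 and 11.9, and in the widest 9.13 and 7.95.

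In 750 head-to-head members (73.1%) the genes did not overlap, and their starts were a median of 178 bp apart (quartiles 104 and 294.75 bp). The region spanned both starts in 714 of them (95.2%). Its strongest summit lay between the starts in 602 (80.3%, 77.3 to 83.0%), at a median distance of 38.75 bp from the midpoint of the gap. In the other 276 the genes overlapped at their starts by a median of 465 bp, and the summit lay in the overlap in 60 (21.7%).

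Accessibility varied with the distance between the starts. Median fold enrichment was 10.3 where the genes overlapped by more than 500 bp, 11.97 for smaller overlaps, 12.5 for gaps under 100 bp, 13.5 for gaps from 100 to below 200 bp, 12.9 from 200 to below 500 bp, 11.4 from 500 bp to below 1 kb and 9.62 in the 19 members with gaps of 1 kb or more. Tag counts peaked at wider gaps, with medians of 944 under 100 bp, and then 1352.5, 1617.5 and 1638 in the next 3 classes. Across the 750 members without overlap, Spearman's rho with the gap was -0.06 for fold enrichment and 0.36 for tags, given as a description only, since neighbouring regions share libraries and depth.

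**Figure D3:**
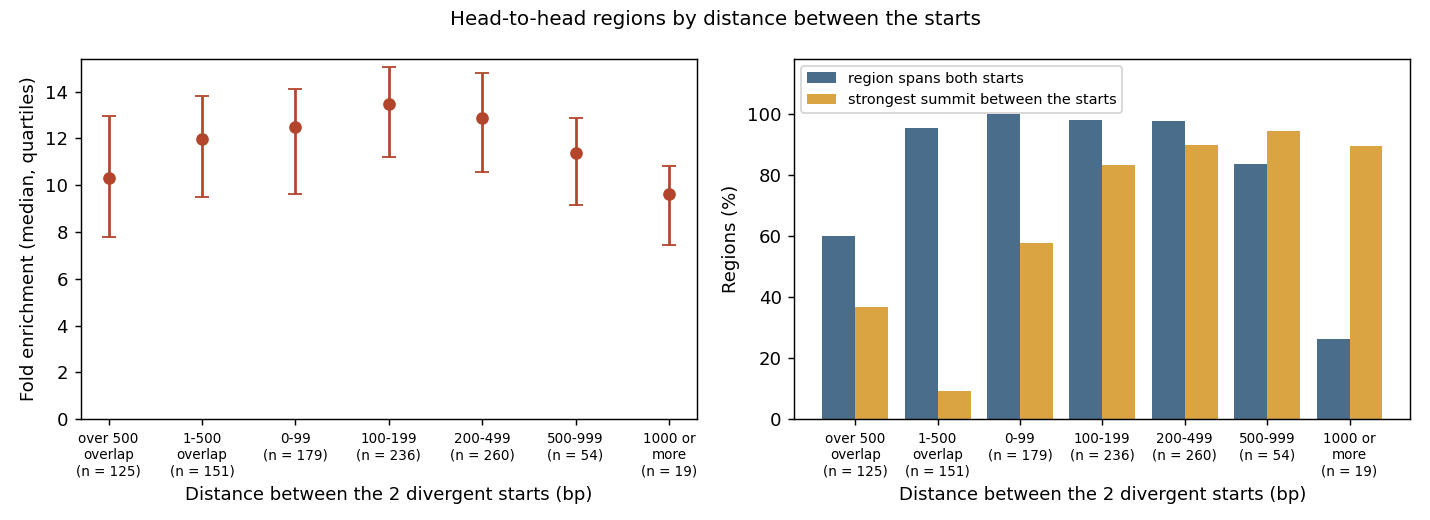
Head-to-head members in 7 classes of distance between the 2 starts, in bp, with overlaps on the left. The left panel gives the median fold enrichment with quartiles, highest (13.5) from 100 to below 200 bp; the right panel gives the percentage of regions that span both starts and the percentage whose strongest summit lies between them.

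The strongest summit sat on the upstream side of the start more often at head-to-head members than at single ones. Each of the 1500 starts of non-overlapping pairs had the summit at a median of 79 bp upstream, with 90.1% upstream. At the 8215 single starts the median was 43 bp upstream, with 70.2% upstream. The part of both distributions within 100 bp of the start was similar, 56.5% and 55.5%. Where starts do not overlap, the gap is upstream of both by definition, so a summit in the gap counts as upstream for both genes.

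**Figure D4:**
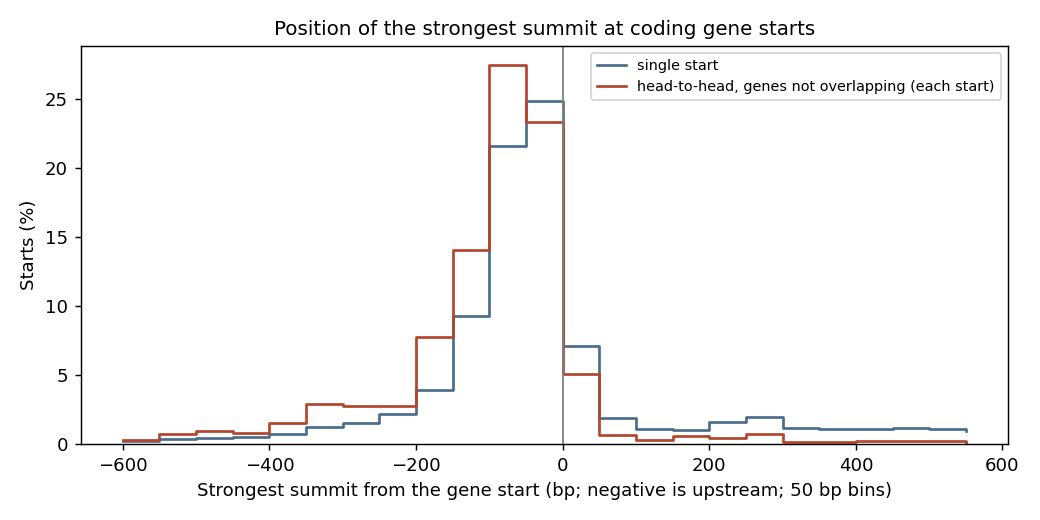
Position of the strongest summit relative to the gene start, in 50 bp bins, as a percentage of starts; negative values are upstream. Head-to-head starts (red) have fewer summits downstream of the start than single starts (blue), with 90.1% and 70.2% upstream.

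The genes themselves were then counted, whether or not a region was there. Of 2162 genes in head-to-head pairs with starts within 1 kb of each other, 2063 had a summit within 1 kb of the start (95.4%, 94.5 to 96.2%). Of 10461 lone starts, with no other coding gene end within 5 kb, 6789 did (64.9%, 64.0 to 65.8%), and over all starts with known strand the share was 68.8%. The share was higher by 30.2 ± 6.94 percentage points in 21 of 21 autosomes (permutation p = 1e-05, adjusted p = 1.33e-05). Both genes of a pair can be served by the same region, and a region at one start often lies within 1 kb of the other.

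Pairs were open or closed together. Among 1097 head-to-head pairs, both starts had a summit in 1046, just 1 start in 3, and neither in 48. Overlapping windows make this likely by construction. The 48 closed pairs were of mixed kinds. They included broadly expressed genes, such as CELF1/PTPMT1 and STAT5B/STAT5A, and genes known from other tissues. All examples were picked after their values had been seen, and no tally by tissue was made. DUOX2/DUOXA2 and DUOXA1/DUOX1 encode the thyroid's hydrogen peroxide source and its maturation factors, ABCG5/ABCG8 a sterol transporter of liver and gut, OR11A1/OR2H1 olfactory receptors, and H2AC1/H2BC1 testis-specific histones. Tail-to-tail pairs were mostly closed, with neither far end open in 581 of 638 pairs, both in 41 and just 1 in 16.

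No difference was detected at far ends. Of 1263 genes in tail-to-tail pairs, 98 had a summit at the far end (7.76%, 6.41 to 9.37%), against 580 of 10147 lone far ends (5.72%, 5.28 to 6.18%) and 9.25% of all far ends. Over autosomes the difference was 0.62 ± 5.81 points, positive in 11 of 20 (permutation p = 0.639, adjusted p = 0.639), so it did not exceed the spread over autosomes, although the pooled intervals do not overlap. With a summit limit of 2 kb the difference was 3.77 points (permutation p = 0.054).

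Gene lists differed in how many of their genes lay at a shared region, with the largest shares among complex I and histone genes. Over all coding genes 20.0% had an end at a shared region. Beside that share, the counts below are descriptions without a test, and the lists were defined by symbol. Gene spacing differs between gene families, and its part in these counts was not tested.

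Energy and mitochondrial genes are given first. Of 36 genes for subunits of complex I, the first enzyme of the respiratory chain, 20 were at a shared region (55.6%, 39.6 to 70.5%). Their regions ranged from 4.42 to 17.3 in fold enrichment with a median of 12.9. The highest was MRPL47/NDUFB5 at 17.3, which joins a mitochondrial ribosomal gene with a complex I gene. NDUFS1/EEF1B2, the largest core subunit with a translation elongation factor, stood at 13.9, and NDUFS6/MRPL36, again complex I with the mitochondrial ribosome, was the lowest at 4.42. Of 77 mitochondrial ribosomal genes 37 were at a shared region (48.1%, 37.3 to 59.0%), with MRPS27/PTCD2 at 17.5 and MRPL50/ZNF189 at 17.2.

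Genes that handle DNA and translation followed. Of 77 DNA replication and repair genes, 31 were members' genes (40.3%, 30.0 to 51.4%). RAD1/BRIX1 pairs a checkpoint clamp subunit with a ribosome assembly factor and had a fold enrichment of 18.5 with 2081 tags. TMEM167A/XRCC4, with a factor of DNA end joining, had 18.4, TRMT6/MCM8 18.02 and ERCC8/NDUFAF2, which joins repair with complex I assembly, 16.03. Of 35 aminoacyl-tRNA synthetase genes, 14 were at shared regions (40.0%, 25.6 to 56.4%). RARS2/ORC3 was the highest at 19.1, HARS1/HARS2 had 15.7, and ING1/CARS2 had only 5.67 in spite of 3021 tags.

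Proteasome genes (14 of 48, 29.2%, 18.2 to 43.2%) and cytosolic ribosomal genes (25 of 86, 29.1%, 20.5 to 39.4%) lay nearer to the background. PSMA2/MRPL32 was the most accessible of the former at 15.9, and RPL5/DIPK1A of the latter at 16.4. In NDUFA7/RPS28, at 12.9, a complex I gene and a ribosomal gene share the region.

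Histone genes had the largest share of all lists, 41 of 72 (56.9%, 45.4 to 67.7%), in 22 regions. These genes sit in clusters in which H2A and H2B genes face away from each other. Fold enrichment was moderate, with a median of 9.24 (4.23 to 12.4). H2AC15/H2BC15 had 11.9 and 1330 tags, H2BC11/H2AC11 11.7 and 1674 tags, and H2AC14/H2BC14 8.10 and 738 tags. The list was drawn by symbol and is not limited to histones made during DNA replication. In each of the 7 lists named so far, 84.7% or more of the genes had an accessible end.

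Zinc finger genes lay at shared regions in 78 of 509 cases (15.3%, 12.5 to 18.7%). Potassium, sodium and calcium channel genes did so in 7 of 132 (5.30%, 2.59 to 10.5%), although 62.9% of them had an accessible end. SCN11A/WDR48 had a fold enrichment of 13.6, NPHP4/KCNAB2 12.1, KCNG3/MTA3 8.04 and SOHLH1/KCNT1 5.62. Of 392 olfactory receptor genes 1 was at a shared region (0.255%, 0.0450 to 1.43%), and 5.10% had any accessible end. None of the 14 pan-neuronal genes was at a shared region, and 0 of 14 leaves room for a share as high as 21.4%, so this list is too short to set against the 20.0% of all genes. The lists of 6 pluripotency and 6 glial genes also had 0 at a shared region, with a limit of 50.0% each.

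**Figure D5:**
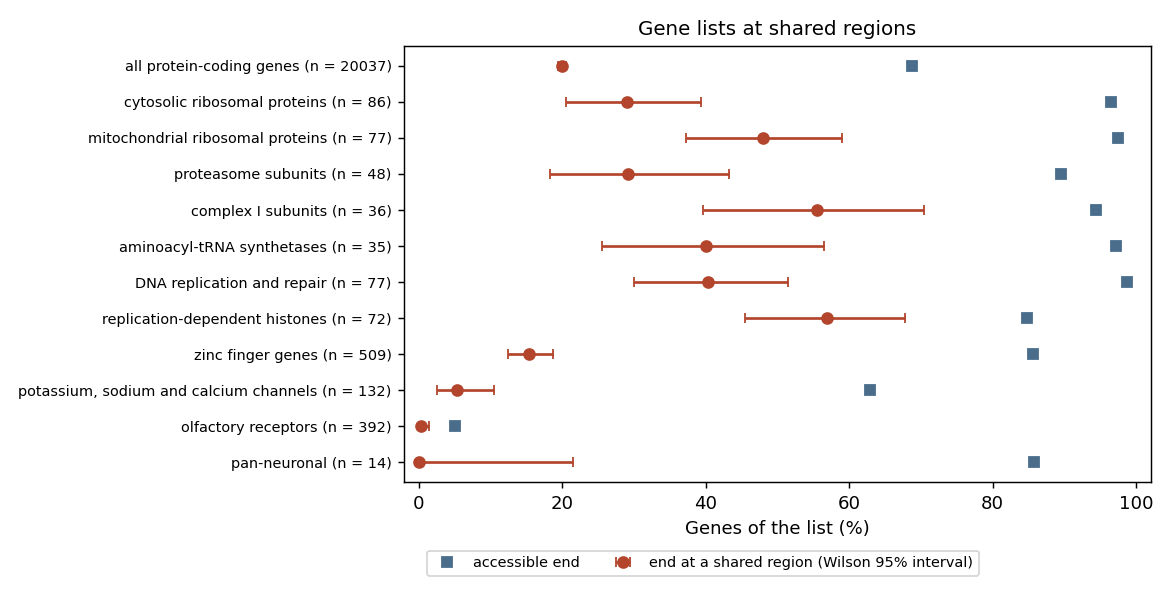
Percentage of the genes of each list with an end at a shared region (red, with Wilson 95% intervals) and with any accessible end (blue). Complex I and histone genes have the highest red values (55.6% and 56.9%), beside 20.0% for all coding genes, while the pan-neuronal list has 85.7% accessible ends and 0 of 14 genes at a shared region.

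The member with the highest fold enrichment was GOLPH3L/HORMAD1 on chromosome 1, at 23.2 with 1583 tags (exact Poisson 95% interval 1506 to 1663, for counting error only). GOLPH3L acts in the Golgi apparatus and HORMAD1 in meiosis. GTF3C1/KATNIP followed at 20.9, with a subunit of the RNA polymerase III factor TFIIIC. TDP2/ACOT13, which joins an enzyme that frees topoisomerase from DNA with a mitochondrial thioesterase, had 19.8. FERRY3/RAD51AP1 and ATP6V1E1/BCL2L13 both had 19.5, the latter with a subunit of the vacuolar proton pump and a mitochondrial BCL2 relative.

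Below these stood RBM27/RBM27-POU4F3 at 19.3, a gene and its readthrough form with a common start, and CFAP210/PHOSPHO2/PHOSPHO2-KLHL23 at 19.2. RARS2/ORC3 had 19.1, with ORC3 encoding a subunit of the origin recognition complex. ZC3H13/CPB2, a tandem member at 18.96, joins an RNA methylation factor with a liver carboxypeptidase. RPGRIP1L/FTO, which pairs a ciliary gene with an RNA demethylase, had 18.9.

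By tags the order was different. Among the members with the most tags, RMND1/DCPH1 had 3266 (exact interval 3155 to 3380) at a fold enrichment of 16.2 over a background of 200.9 tags. FHIP1B/CNGA4 had 3237 at 13.4, FGD6/VEZT 3178 at 13.4, and TPR/ODR4, with a nuclear pore protein, 3143 at 13.3. LOC124904276/RBM15 had 3133, CDCA3/USP5 3100 and TMEM60/PHTF2 3084. FAM72B/SRGAP2C had 3263, but both genes have near-identical copies elsewhere in the genome, and the assignment of its tags is uncertain. None of the 10 highest by tags was among the 10 highest by fold enrichment.

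At the lower end of fold enrichment were regions over high backgrounds. ANKHD1/ANKHD1-EIF4EBP3 had 1.71 with 399 tags, PITPNM1/CDK2AP2 1.92 with 447, PDLIM2/C8orf58 2.00 with 282, AJM1/PHPT1 2.00 with 333 and GBA2/CREB3 2.26 with 342. Their backgrounds of 140.6 to 233.1 tags were all above the members' median of 99.1. The closest near ends were at the same base, and both starts and far ends were among them. The 5 such members of highest fold enrichment were RBM27/RBM27-POU4F3, named above, RBAK/RBAK-RBAKDN at 18.04, DNAJC25/DNAJC25-GNG10 at 17.3, GET1/GET1-SH3BGR at 16.3 and TRAPPC2B/ZNF547 at 16.3. These 5 were picked by fold enrichment, so they do not show how it varies with distance. ANKHD1/ANKHD1-EIF4EBP3, the lowest at 1.71, also had starts at the same base. The 5 members with the farthest ends ran from LTBR/SCNN1A at 2.75 to RAD51AP2/VSNL1 at 7.17. Among them was ACTG1/FSCN2 at 4.78, where the gene for cytoplasmic gamma-actin faces away from an actin-bundling gene. In 38 cases 1 set of genes had more than 1 shared region, such as H2BC21/H2AC20/H2AC21 with 7.52 and 5.88 and LOC128706665/LOC128706666/MKKS/SLX4IP with 10.00 and 6.80.

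Of 20 pairs known from textbooks as divergent, 17 were at a shared region. The other 3, PPAT/PAICS, RPL15/NKIRAS1 and TIMM23/PARG, have no outer ends within 2 kb of each other in the table used, so the rule could not take them. NPAT/ATM, a histone gene activator beside the DNA damage kinase, had 13.6 and 3188 tags. HSPD1/HSPE1, the mitochondrial chaperonin and its cofactor, had 11.6 and 2486 tags.

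Others of the 17 fell near the head-to-head median of 12.4. RECQL/GOLT1B had 14.5, TK1/AFMID 14.2, SARS2/MRPS12 14.1, GABPA/ATP5PF 12.4, SIRT3/PSMD13 11.9 and TAP1/PSMB9, whose products prepare peptides for antigen presentation, 11.8. Tags and ratio parted at U2AF1L4/PSENEN (5.36 with 1569 tags), where the background was 291.8 tags. The 3 pairs of type IV collagen genes, which encode basement membrane chains, were low on both scales. COL4A1/COL4A2 had 4.55 and 408 tags, COL4A4/COL4A3 5.41 and 226, and COL4A6/COL4A5 6.12 and 209.

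Tail-to-tail members were few and weak, with a range of 2.26 to 10.9. The highest, DUOXA1/DUOXA2 at 10.9 with 939 tags, lies at the far ends of both maturation factor genes. Their starts were closed in the pairs with DUOX1 and DUOX2 named above. EXTL1/SLC30A2 had 10.1 and 1038 tags, NLRP3/OR2B11 8.38 and 475, PPFIA3/HRC 6.99 and 1089, and STAT5A/STAT3 6.76 and 297. OR2B11 is the only olfactory receptor gene among the members.

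Among tandem members the most tags were at CYCS/SPMIP4, with 2567 at a fold enrichment of 17.1. CYCS encodes cytochrome c. It was chosen after its values had been seen.

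The study set out to find regulatory elements of MAPT, which encodes the tau protein. Within 1 Mb of its start 3 members were found, all head-to-head. EFTUD2/DNAAF19, a spliceosome gene beside a ciliary one, had 10.4 and 738 tags. DCAKD/NMT1, with the enzyme that adds myristate to proteins, had 15.7 and 1924 tags. ACBD4/PLCD3 had 3.30 and 392 tags. MAPT itself had no shared region.

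Promoter sequence was compared over RefSeq windows of 300 bases, 250 before and 50 after an annotated start. Windows of 13901 genes were used, in which that annotated start lay within 100 bp of the outer start of the gene. Each share below is of windows with at least 1 match on either strand and is a description without a test. The ETS word CCGGAAG was in 27.4% of 1795 windows at head-to-head members, 28.2% of 277 tandem starts, 16.4% of 6987 single starts and 14.6% of all windows. Windows of a pair share bases, but with the plus-strand gene alone the share was 26.6%. It was higher at head-to-head than at single starts in 17 of 21 autosomes.

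The NRF1 word GCGCATGCG was in 5.24% of windows at head-to-head members, 3.39% at single starts and 2.88% of all, and the YY1 word AAGATGG in 9.64%, 6.74% and 6.69%. CCAAT differed little, with 40.8%, 36.6% and 37.1%. None of the words searched is contained in another. GGGCGG was in 72.3% and 71.3%, and in 58.5% of all. TATAAA, the TATA box, went the other way, with 4.01% at head-to-head members, 6.15% at single starts and 20.3% at the 4069 starts without an accessible region. The E-box word CAGATG was in 7.47%, 8.93% and 18.997% of the same windows.

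Rarer words were in few windows. TGACGTCA (CREB) was in 3.23% of head-to-head windows and 3.49% of single ones, TCTCGCGAG (BANP) in 2.06% and 1.30%, and ACTACAATT (ZNF143) in 1.11% and 0.515%. GC content had a median of 65.0% at head-to-head members, 66.0% at single starts and 52.0% at starts without an accessible region. The observed over expected number of CpG was 0.871, 0.842 and 0.260. The ETS word itself holds a CpG, and the part of base composition in its shares was not tested.

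Head-to-head members rarely had a long noncoding RNA beside them. An annotated end of such a gene lay within 1 kb of a summit at 4.87% of head-to-head members (3.72 to 6.37%), 15.8% of tandem members (12.1 to 20.2%) and 23.7% of single starts (22.7 to 24.6%). The intervals do not overlap.

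Members just inside the 1 kb limit included DECR2/NME4, with the second end 1000 bp from a summit and a fold enrichment of 5.88, and APBA3/MRPL54 at 998 bp with 5.38. The first regions outside it were RABL6/AJM1 at 1003 bp with 2.72, TIMM9/KIAA0586 at 1009 bp with 2.71 and THUMPD2/TMEM178A at 1014 bp with 3.97. Members by chromosome ranged around the overall 15.7% of coding-end regions, with 22.9% on chromosome 16 (19.5 to 26.6%) and 7.77% on chromosome 18 (4.84 to 12.2%) as the extremes among autosomes.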

How the data were processed

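ATAC-seq regions of 3 replicates were analysed as the 1 list into which the authors had combined them, named in the labels as the optimal IDR set. The submitters' processing notes name the build hg38; the aligner, the peak caller and its filters are not given in the sources used here. The list has no header. It holds, per summit, the fold enrichment deposited as a linear ratio, the −log10 p as deposited, and a deposited score that is a whole number of unstated scaling. The depth of each replicate is unknown, and the number of tags limits the precision of a value.

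Tag counts were recovered from the ratio and the −log10 p under a Poisson upper tail with 1 added to tags and background. This gave whole numbers for all 145092 entries, to within 0.00079 units of −log10 p, where the next whole number missed by a median of 0.266. Entries that share an interval make up 1 region each, 65234 in all, with the values of its entry of highest −log10 p. Positions count from 1. Gene ends came from a RefSeq table of GRCh38.p14, and strands, from RefSeq promoter sequences matched by gene ID, for 15843 of 20037 protein-coding genes.

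Autosomes with at least 3 regions of both classes entered a test. That minimum, and the rule that a gene counts by its start where both its ends are near a summit, were set after the data had been seen. The members and gene lists were chosen with earlier results of these data known. Named members are the 10 highest by fold enrichment and by tags, the 5 lowest, the 5 with most genes, the 5 with the closest and the farthest ends, the 5 highest tail-to-tail, those within 1 Mb of MAPT, 20 textbook pairs and the gene lists. Regions and sequences shown outside that rule are marked in the text. A few named members are left out of the text. Share intervals are Wilson 95% intervals, and a count of 0 was given the limit of 3 counts of the total. Intervals cover counting error only.

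Alternatives were limits of 500 bp and 2 kb, 1 summit near both ends, the strongest summit only, regions with 1 summit only, a score of at least 830, no readthrough genes, no chromosome 19, classes of width and all summit entries. Added after the data had been seen were tags in place of fold enrichment, single starts as the only comparison and 2-gene members with known strands without the head-to-head ones. Computations used Python 3.11.15, numpy 2.4.6, scipy 1.17.1 and pandas 2.3.3, and were tested on simulated data.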

Additional observations from a re-analysis of the deposited data

How the results depend on the processing

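Of 69 values recomputed for 9 results, 66 had the direction and call of the reported value or, for counts, lay within 1.5 times of it. With only the regions that have 1 summit, the number of members was 213 in place of 2075, since most members have several summits. With a limit of 500 bp the difference between tail-to-tail and lone far ends was -0.00633 points in place of 0.62, and at 2 kb it was 3.77 points (permutation p = 0.054), none past the threshold. A comparison added once results were known kept only the 2-gene members with known strands that were not head-to-head. Their difference in log2 fold enrichment from single regions was -0.0174, in place of 0.30 for all members. The other 11 alternatives to that 0.30 lay above 0 and kept the call, from 0.17 with single far ends left out and 0.19 within classes of width to 0.54 with 1-summit regions only. The number of members was 1703 at a limit of 500 bp and 2779 at 2 kb. The log2 fold difference between head-to-head members and single starts was 0.28 and 0.32 at these limits, 0.27 with a score of at least 830 and 0.77 with 1-summit regions only. No replicate could be left out, and the spread between cultures is unknown. No paired analysis was possible because the 3 replicates form a single group with 1 pooled list.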
